A study of Equus caballus with 2 samples.

Results

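Hyaluronan is a long sugar chain of the extracellular matrix, and the genes described here make it, break it down or bind it. The 9 genes were chosen by symbol, with earlier results of these data known. They were the hyaluronan synthases *HAS1*, *HAS2* and *HAS3*, the breakdown genes *CEMIP*, *CEMIP2* and *HYAL2*, the receptor *CD44*, and the binding proteins *VCAN* and *TNFAIP6*. Of the 9, 7 were found among the 21426 genes listed in both libraries. *HAS3* and *HYAL2* were not found by symbol and were not analysed here.

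Hyaluronan is unusual among matrix sugars in being made at the plasma membrane, where a synthase joins its sugars and extrudes the growing chain directly out of the cell. Long chains hold water and organise a loose coat around cells together with versican, the proteoglycan encoded by *VCAN*, whereas cleaved chains are taken up and degraded. In connective tissue, this matrix is known for its turnover during wound repair and in fibrosis, and in the endometrium it is known for changes in tissue water.

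Equine endometrial fibroblasts of 4 mares, with healthy endometria or mild fibrotic alterations, were grown on collagen-coated hydrogels and pooled for each treatment. The control (untreated) cells received serum-free medium with albumin and no supplement, and the TGF-β1 (treated) cells received human recombinant TGF-β1 at 10 ng/ml in the same medium, in both cases for 24 h. Each condition was 1 droplet library, in which transcripts were counted by their unique molecular identifiers (UMIs). The control library held 4384 cell barcodes, of which 3865 were kept, and the TGF-β1 library held 5124, of which 4513 were kept. The cells kept were those with 20000 or more UMIs, 3500 or more genes and less than 4% mitochondrial UMIs.

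After this selection the control library retained 210497250 UMIs and the TGF-β1 library 219731144, with medians of 50313 and 43142 UMIs per cell. The 2 libraries shared 6 barcodes, of which 2 were among the kept cells, and none of the 6 had the same UMI total in both. The fibroblast label was checked against 9 fibroblast markers, all found, whose summed level was 21715 CPM (UMIs per 1000000 UMIs of the library) without and 21795 CPM with TGF-β1. The collagens, *VIM* and *DCN* made up most of these sums. Of the 9, 4 were lower after TGF-β1 by more than 0.5 on the log2 scale, namely *VIM* (4399 and 2240 CPM), *PDGFRA* (50.5 and 16.7 CPM), *PDGFRB* (80.1 and 49.02 CPM) and *THY1* (216 and 87.5 CPM). Among the epithelial markers, 6 of 8 were found, and their summed level was 134 CPM without and 12.3 CPM with TGF-β1. *KRT8* alone gave 114 and 4.48 CPM of these sums, while the defining genes *EPCAM* and *CDH1* stayed at or under 0.03 CPM in both libraries. All 4 endothelial markers summed to 0.784 and 0.410 CPM. The 5 immune markers summed to 56.6 and 52.9 CPM, nearly all from *CD68* and *CD14*, and *PTPRC*, which marks white blood cells, had 1 and 0 UMIs. Of 10 cycling markers 9 were found, with summed levels of 71.9 and 49.9 CPM, and 102 control cells (2.64%) and 89 TGF-β1 cells (1.97%) held at least 3 of them.

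With 1 library per condition, no test was possible, p-values are not given, and treatment cannot be told apart from library preparation. All intervals are at the 95% level and cover counting error only, not the difference between mares or repeated cultures. Levels are UMIs summed over the kept cells, in CPM, and come from the 3′ ends of transcripts, so that they are compared between libraries and not between genes. In pooled counts, fewer cells with a transcript and fewer transcripts per cell cannot be told apart. The shares of cells are therefore given beside the levels, although a share also falls when the level is lower in all cells. The cells were not assigned to mares here, and free RNA was not measured, since no cell type known to lack these genes was present.

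Among the 7 genes, *CEMIP* was lower after TGF-β1 by more than 2-fold, *VCAN*, *HAS2* and *TNFAIP6* were higher by less than that, *HAS1* and *CEMIP2* were lower by less than that, and *CD44* was nearly equal. The count past 2-fold was therefore 1 of 7, in the lower direction, and 0 of 7 in the higher direction. Of all 12116 genes that reached a mean of 1 CPM, 3.46% were more than 2-fold lower and 3.45% more than 2-fold higher after TGF-β1, and their median log2 ratio was -0.01. With so few genes, a count of 1 of 7 is not set apart from that background.

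**Figure D1:**
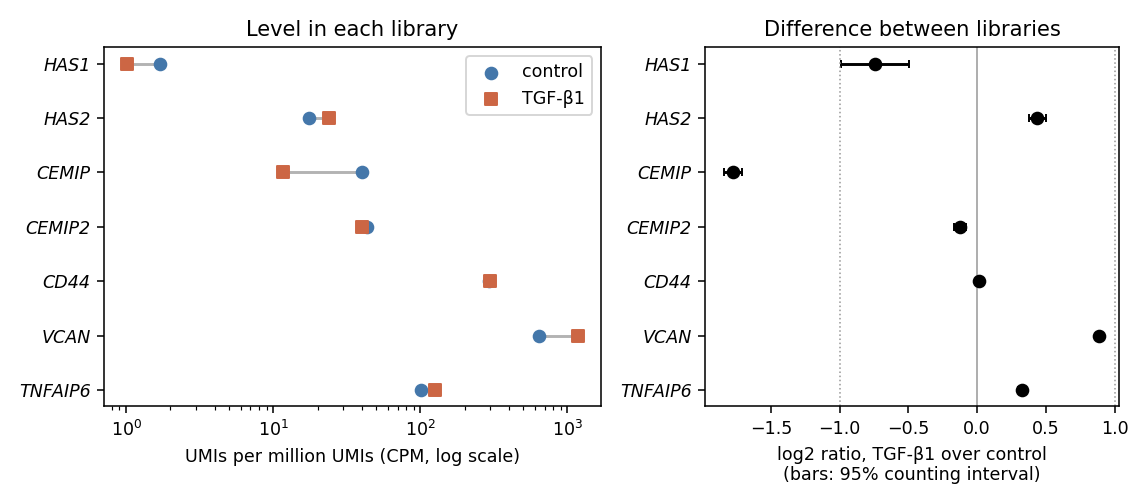
Levels of the 7 hyaluronan genes in the control library (circles) and the TGF-β1 library (squares), in CPM on a log axis, and log2 ratios of treated over untreated cells with their 95% counting intervals. *CEMIP* lies beyond the dotted line of 2-fold lower at -1.78, and *VCAN* lies inside the line of 2-fold higher at 0.89.

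*HAS2*, which makes long hyaluronan chains and is the synthase best known from fibroblasts, had 3692 UMIs (17.5 CPM) without and 5222 UMIs (23.8 CPM) with TGF-β1. The TGF-β1 library was thus 1.36-fold higher, a log2 ratio of 0.44 (0.38 to 0.50). To compare shares at equal depth, each cell was thinned at random to 20000 UMIs. *HAS2* was then seen in 811 untreated cells, or 21.0% (19.7 to 22.3), and in 1288 treated cells, or 28.5% (27.2 to 29.9). Without thinning the shares were 35.1% and 46.8%. Cells in which it was seen held a mean of 1.71 thinned UMIs without TGF-β1 and 1.62 with it. The difference in share was 7.56 percentage points, and it was 1.64 when at least 2 UMIs were asked for.

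*HAS1*, a second synthase, was near the limit of detection. It had 356 UMIs (1.69 CPM) without and 222 UMIs (1.01 CPM) with TGF-β1, a log2 ratio of -0.74 (-0.99 to -0.50). It was seen in 110 thinned untreated cells, or 2.85% (2.34 to 3.42), and in 88 treated cells, or 1.95% (1.57 to 2.40). The difference in share was -0.90 percentage points, with an interval of -1.58 to -0.24, and it stayed below 0 under 6 alternatives, from -2.22 to -0.33. Most of these cells held 1 thinned UMI. The directions of *HAS1* and *HAS2* were opposite.

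Among the breakdown genes, *CEMIP* differed most. *CEMIP* encodes a secreted protein that binds hyaluronan and is needed for its cleavage by fibroblasts. Its 8396 UMIs (39.9 CPM) without TGF-β1 stood against 2557 UMIs (11.6 CPM) with it, a level 3.43-fold lower and a log2 ratio of -1.78 (-1.84 to -1.71). It was seen in 946 thinned control cells, or 24.5% (23.1 to 25.9), and in 633 thinned TGF-β1 cells, or 14.0% (13.0 to 15.1). The unthinned shares were 36.3% and 25.2%. Cells in which *CEMIP* was seen held a mean of 2.98 thinned UMIs without TGF-β1 and 1.57 with it. A lower level in all cells would lower both this mean and the share, so that they are not 2 separate differences.

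The upper tail of *CEMIP* was the clearest difference in its distribution. Cells with at least 5 thinned UMIs numbered 169 without TGF-β1, or 4.37% (3.75 to 5.07), and 25 with it, or 0.554% (0.359 to 0.817). The highest control cell held 38 thinned UMIs and the highest TGF-β1 cell 12. The variance of its thinned counts was 6.76 times the mean without TGF-β1 and 2.43 times with it. This ratio also depends on the mean, which was 0.730 and 0.221 thinned UMIs per cell. For *HAS2* the ratios were 2.16 and 1.87, at means of 0.359 and 0.462. Spread apart from the mean was not compared.

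*CEMIP2*, a membrane protein related to *CEMIP* that has been described as a cell-surface hyaluronidase, did not share this difference. It had 9169 UMIs (43.6 CPM) without and 8768 UMIs (39.9 CPM) with TGF-β1, a log2 ratio of -0.13 (-0.17 to -0.08). Its thinned share of cells was 49.1% (47.5 to 50.7) and 47.9% (46.4 to 49.4), and these intervals overlap. The difference in share was -1.20 percentage points, with an interval of -3.34 to 0.95.

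**Figure D2:**
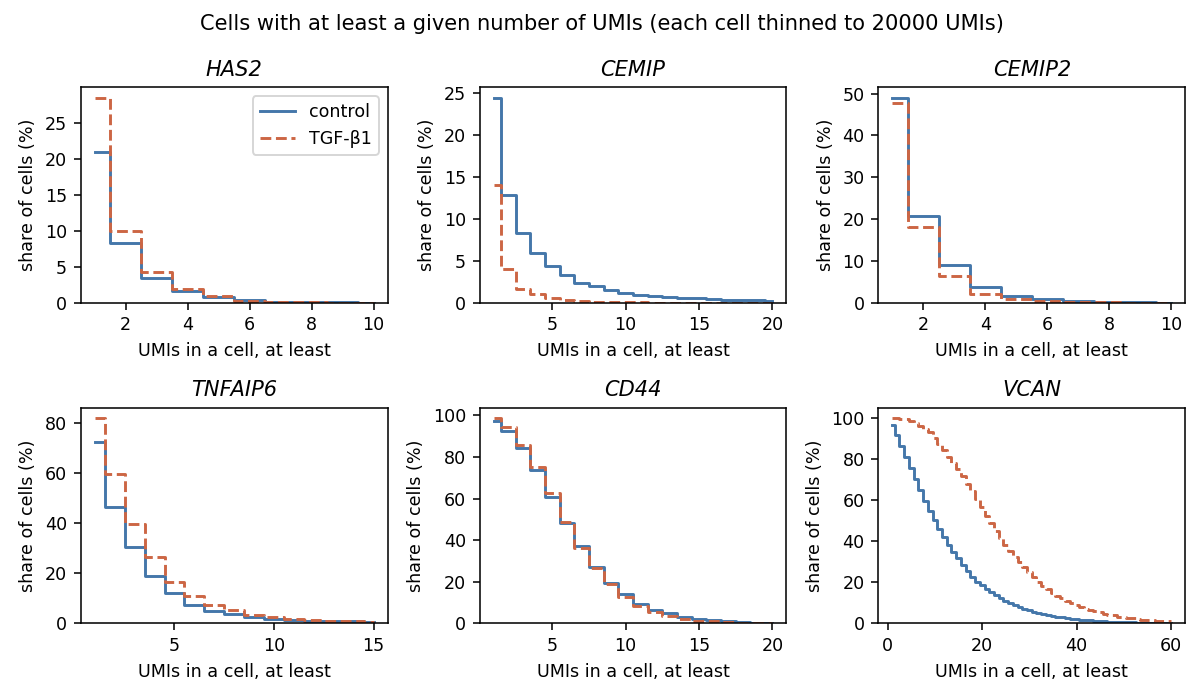
Share of cells (%) with at least the number of UMIs on the horizontal axis, for 6 of the genes, after each cell was thinned to 20000 UMIs (control, solid line; TGF-β1, dashed line; *HAS1* is not drawn because few cells held it). The dashed line lies under the solid line for *CEMIP* and above it for *VCAN*, and both lines run close together for *CD44*.

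*CD44*, the main cell-surface receptor for hyaluronan, was seen in nearly every cell, and its ratio between the libraries was close to 1. It had 62012 UMIs (294.6 CPM) without and 65194 UMIs (296.7 CPM) with TGF-β1, a log2 ratio of 0.01 (-0.01 to 0.03). The thinned share was 97.5% (97.0 to 98.01) of untreated and 98.7% (98.4 to 99.04) of treated cells, and the median cell of both held 5 thinned UMIs. Of the 7 genes, *CD44* was the only one whose ratio interval held 0.

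*VCAN* encodes versican, a large chondroitin sulphate proteoglycan that binds hyaluronan through its amino-terminal end. It had 135292 UMIs (643 CPM) without and 261044 UMIs (1188 CPM) with TGF-β1, which is 1.85-fold higher and a log2 ratio of 0.89 (0.88 to 0.90). The whole distribution lay higher after TGF-β1. The median cell held 10 thinned UMIs without TGF-β1 and 21 with it, and the 90th percentile was 25 and 38. Cells with at least 5 thinned UMIs made up 75.5% (74.1 to 76.8) of the untreated and 98.6% (98.2 to 98.9) of the treated. A *VCAN* UMI was missing after thinning in 3.43 percentage points fewer TGF-β1 cells than control cells, with shares of 96.5% (95.9 to 97.0) and 99.9% (99.8 to 100.0). Relative to the mean, the variance of its thinned counts was 8.27 without TGF-β1 and 6.27 with it.

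*TNFAIP6* encodes TSG-6, an inflammation-induced protein that binds hyaluronan and transfers heavy chains of inter-alpha-inhibitor onto it. It had 21266 UMIs (101 CPM) without and 27822 UMIs (127 CPM) with TGF-β1, a log2 ratio of 0.33 (0.30 to 0.35). Its thinned share was 72.4% (71.0 to 73.8) among untreated and 81.9% (80.7 to 83.0) among treated cells, and the median cell held 1 and 2 thinned UMIs. The highest cells held 39 and 48 thinned UMIs.

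Co-detection asked whether the transcripts were found in the same cells. Between 3 and 4 of the 7 genes were seen in most thinned cells, namely 3 in 32.8% and 4 in 38.2% of control cells, and 3 in 34.2% and 4 in 41.8% of TGF-β1 cells. All 7 were seen together in 3 control cells and 2 TGF-β1 cells. For each of the 21 pairs, the share of cells with the second gene was compared between cells with and without the first gene, provided that each side held at least 50 cells. All 21 pairs could be compared without TGF-β1 and 15 with it, and the 2 exact intervals lay apart in 4 control pairs and 1 TGF-β1 pair. The intervals were not adjusted for the number of pairs. Pairs of other genes were not compared in this way, so that nothing particular to these genes is read from the counts.

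The synthase *HAS2* and the breakdown gene *CEMIP* were seen together in fewer control cells than the product of their shares. Together they were in 149 control cells, or 3.86%, whereas the product of their shares was 5.14%. In control cells, *CEMIP* was seen in 18.4% (15.8 to 21.2) of cells with *HAS2* and in 26.1% (24.5 to 27.7) of cells without it. In the TGF-β1 library they were together in 201 cells, or 4.45%, where the product of their shares was 4.00%. There *CEMIP* was seen in 15.6% (13.7 to 17.7) of cells with *HAS2* and in 13.4% (12.2 to 14.6) of cells without it, and the intervals overlap. Over 5 alternatives, the difference between cells with and without *HAS2* ran from -10.7 to -4.09 percentage points without TGF-β1 and from 1.51 to 4.59 with it. Another random seed for the thinning alone gave -10.7 and 4.59, so that its size depends on the draw. Whether the 2 libraries differ in this co-detection was not tested.

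Cells with *CEMIP* were also deeper. Control cells with *CEMIP* and no *HAS2* had a median of 54907 UMIs before thinning, and control cells with neither had a median of 49185. With TGF-β1 these medians were 46404 and 42514. Cells with *HAS2* and no *CEMIP* had medians of 48648 and 43118, close to those of cells with neither. The part of depth in the pairing of the genes was not tested. Nor was that of mares, whose cells were pooled and not assigned to them here.

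**Figure D3:**
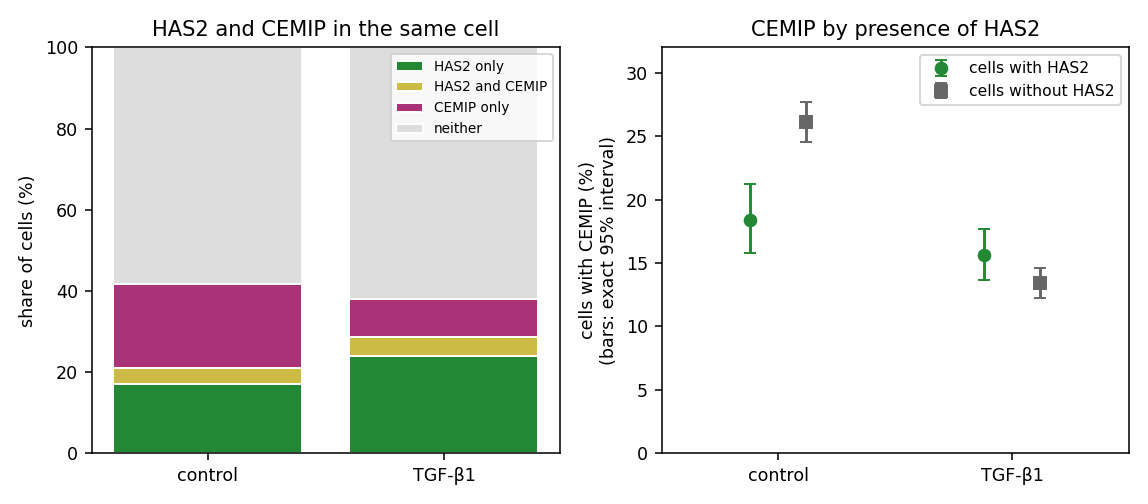
Left, share of cells (%) in each library with *HAS2* alone, both genes, *CEMIP* alone or neither, after thinning to 20000 UMIs. Right, share of cells (%) with *CEMIP* among cells with *HAS2* (circles) and without it (squares), with exact 95% intervals, which lie apart at 18.4% and 26.1% in the control library and overlap in the TGF-β1 library.

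The cells with *CEMIP* and no *HAS2* went from 20.6% (19.4 to 21.9) of the untreated to 9.57% (8.73 to 10.5) of the treated cells. Cells with *HAS2* and no *CEMIP* went from 17.1% (16.0 to 18.4) to 24.1% (22.8 to 25.4). Cells with neither were 58.4% and 61.9%. These shares depend on how well each gene is captured and are compared between libraries only.

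Of the other pairs, *TNFAIP6* was seen in 75.0% (71.8 to 77.9) of control cells with *HAS2* and in 71.8% (70.1 to 73.4) of those without it, and the intervals overlap. That difference of 3.19 percentage points was 7.68 when cells were thinned to 10000 UMIs and 12.3 when at least 2 UMIs were asked for. *CEMIP2* was seen in 54.6% (51.1 to 58.1) of control cells with *HAS2* and in 47.6% (45.8 to 49.4) of those without it, while the TGF-β1 library gave 48.4% and 47.7%. The control difference of 7.01 percentage points was 1.74 when cells were thinned to 10000 UMIs. *CD44* was seen in 99.1% of control cells with *HAS2* and 97.1% of those without it, and this difference of 2.02 percentage points was 0.80 with another random seed. For *CD44* the TGF-β1 library gave 98.6% and 98.8%. *VCAN* was seen in 96.7% of control cells with *CD44* and in 89.5% of the 95 cells without it. In the TGF-β1 library, the only pair apart was *HAS1* with *CEMIP2*, which was seen in 34.1% (24.3 to 45.0) of the 88 cells with *HAS1* and 48.2% (46.7 to 49.6) of the others. The control library gave 52.7% and 49.0% for this pair, in the other direction and with intervals that overlap. Pearson correlations over cells between the 7 genes, of log(1 + thinned UMIs), lay between -0.08 and 0.14 in both libraries, over 3865 and 4513 cells, too weak to be read as a relation. The lowest was that of *HAS2* with *CEMIP* in the control library, so that the lower co-detection of this pair was weak over cells too.

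The level of *VCAN* followed the depth of the cell, and the libraries differ in depth. Its correlation with the total UMIs of the cell before thinning was 0.30 in 3865 control cells and 0.25 in 4513 TGF-β1 cells, and that of *CEMIP* was 0.15 and 0.08. Cells were therefore divided into tertiles by total UMIs, with cut points of 40916 and 53320 taken from both libraries together, a division chosen after the data were seen. The lowest tertile held 879 control and 1914 TGF-β1 cells, and the highest held 1612 and 1181. In the lowest tertile, *VCAN* was 401 CPM without and 998 CPM with TGF-β1, a log2 ratio of 1.31. In the highest tertile it was 746 and 1282 CPM, a log2 ratio of 0.78. Its ratio passed 2-fold in the lowest and the middle tertile, and in all 3 tertiles the treated cells were higher.

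For *CEMIP*, the size of the difference was greater in deeper cells. In the lowest tertile it was 21.4 CPM without and 8.98 CPM with TGF-β1, a log2 ratio of -1.26. In the highest tertile it was 50.5 and 14.4 CPM, a log2 ratio of -1.81. *HAS2* gave 0.33, 0.40 and 0.50 from the lowest to the highest tertile. Within every tertile, *CEMIP* was more than 2-fold lower after TGF-β1.

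The same ratios were taken in 15 groups of cells, formed by depth tertile, by cycling markers or by the presence or absence of 1 thinned UMI of *KRT8*, *CFD*, *VCAM1*, *ACTA2*, *IGFBP3* or *AREG*. These groups overlap and share cells. The share of cells that fell in them also differed between the libraries, since cells with a UMI went from 1729 to 708 for *CFD*, from 997 to 141 for *KRT8*, from 208 to 1735 for *IGFBP3* and from 176 to 1029 for *AREG*. Ratios in groups formed by these genes therefore describe unlike cells. Cells with *VCAM1* and cells without *ACTA2* are not among the 15, since only 1 and 6 treated cells fell in them. In those 6 cells *HAS2* was 20.8 CPM, against 21.7 CPM in the untreated, and *HAS1* was 4.16 CPM, against 2.91 CPM, on 5 and 1 treated UMIs. *VCAN*, *HAS2* and *TNFAIP6* were higher after TGF-β1 in 15 of 15 groups, and *CEMIP* and *HAS1* were lower in 15 of 15. The ratios ran from 0.66 to 1.31 for *VCAN*, from 0.08 to 0.69 for *TNFAIP6* and from -2.41 to -1.26 for *CEMIP*. *CD44* was higher in 12 groups and lower in 3, and *CEMIP2* higher in 2 and lower in 13. For *HAS2* the lowest ratio was in cells with *CFD*, where 1729 untreated cells gave 18.02 CPM and 708 treated cells 18.06 CPM, a log2 ratio of 0.0027 (-0.13 to 0.14). The counting interval also held 0 for *HAS2* in cells with *KRT8* or *IGFBP3*, for *TNFAIP6* in cells with *KRT8*, and for *HAS1* in cells with *AREG* or *KRT8* and in cycling cells, where *HAS1* rested on 8 to 11 UMIs in the smaller library. In cells without *CFD*, *HAS2* was 17.2 and 24.9 CPM, a log2 ratio of 0.53.

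**Figure D4:**
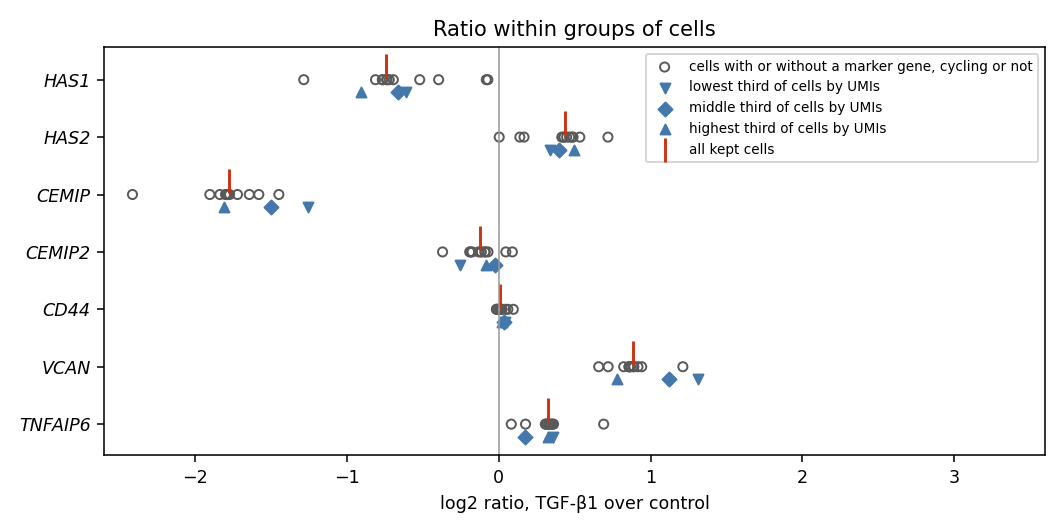
Log2 ratio of TGF-β1 over control for each gene in all kept cells (red line), in the 3 tertiles of cells by total UMIs (blue) and in groups of cells with or without a marker gene or cycling markers (open circles). *CEMIP* lies below -1 in every group and *VCAN* between 0.66 and 1.31, whereas *CD44* stays near 0.

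The epithelial gene *KRT8* was itself lower after TGF-β1, so that cells without it are not the same population in both libraries. Among 2868 control and 4372 TGF-β1 cells without *KRT8*, *CEMIP* was 37.8 and 11.5 CPM, a log2 ratio of -1.72, and *VCAN* was 656 and 1189 CPM, a log2 ratio of 0.86. Whether the epithelial markers have a part in the ratios was not tested. *HAS2* gave 0.49 and *TNFAIP6* 0.35 in the same cells. Without cycling cells, *CEMIP* gave -1.78 and *VCAN* 0.89.

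Within the control library, the genes varied between cells in different ways. The part of mares in the splits by *CFD*, *VCAM1*, *ACTA2*, *AREG* and *IGFBP3* was not tested, since cells were not assigned to them. *VCAN* was 480 CPM in the 1729 cells with *CFD*, which encodes complement factor D, and 762 CPM in the 2136 cells without it, and *CEMIP* was 32.3 and 45.5 CPM. With TGF-β1, the same split gave 1112 and 1203 CPM for *VCAN* and 9.03 and 12.1 CPM for *CEMIP*. The median depth of the control cells was 47398 UMIs with *CFD* and 52687 without it, and its part in the split was not tested.

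The 173 control cells with *VCAM1*, which encodes an adhesion protein induced by inflammatory signals, were high for *HAS2* and *TNFAIP6* and low for *VCAN*. *HAS2* was 28.9 CPM in them and 17.0 CPM in the other control cells, a log2 ratio of 0.77 (0.58 to 0.94). *TNFAIP6* was 129 and 99.7 CPM, a log2 ratio of 0.37 (0.29 to 0.45). *VCAN* was 375 and 655 CPM, a log2 ratio of -0.80 (-0.85 to -0.76), and *CEMIP* was 41.7 and 39.8 CPM. The median depths, 51103 and 50226 UMIs, were close. Only 1 of the 4513 treated cells held *VCAM1*, and the split was not made there.

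*CEMIP* and *VCAN* were both low in the few control cells without *ACTA2*, which encodes smooth muscle actin. In these 123 cells *VCAN* was 196 CPM, against 654 CPM in the 3742 cells with *ACTA2*. *CEMIP* was 13.6 CPM, against 40.5 CPM. *HAS2* was 21.7 CPM, against 17.4 CPM, and *TNFAIP6* was 105 CPM, against 101 CPM. The cells without *ACTA2* were shallower, at a median of 40074 UMIs against 50801, and the part of depth was not tested. In the 176 control cells with *AREG*, which encodes the growth factor amphiregulin, *CEMIP* was 72.2 CPM, against 38.2 CPM in the others, while *HAS2* was 16.6 and 17.6 CPM. The control cells with *AREG* were deeper, at a median of 54547 UMIs against 50128, and the part of depth was not tested here either. Treated cells with and without *AREG* had 13.54 and 11.004 CPM of *CEMIP*. Among treated cells, 1735 with *IGFBP3*, which encodes a binding protein of insulin-like growth factors, and 2778 without it had 11.7 and 11.6 CPM of *CEMIP*, 24.6 and 23.2 CPM of *HAS2*, and 1125 and 1230 CPM of *VCAN*.

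The genes most alike in their pattern over cells were sought among 6886 genes with a symbol and at least 10 CPM in both libraries. The measure was the smaller of the 2 Pearson correlations of log(1 + thinned UMIs), and a gene was named where it reached 0.2. For *VCAN*, 98 genes reached it. The 5 highest, with the control and TGF-β1 values, were *COL12A1* at 0.52 and 0.45, *ITGB1* at 0.45 and 0.40, *LTBP1* at 0.44 and 0.37, *THBS1* at 0.37 and 0.39, and *PHLDB2* at 0.43 and 0.36. For *CEMIP2* only *GLIS3* and *AUTS2* reached it, both at 0.20 in each library. None reached it for *HAS2*, *CEMIP*, *CD44* and *TNFAIP6*, whose highest values were 0.14, 0.12, 0.12 and 0.14. The points are cells of the same 2 libraries, and *VCAN* itself followed their depth. Its mean was 12.0 and 23.0 thinned UMIs per cell, against 0.359 and 0.462 for *HAS2* and 0.730 and 0.221 for *CEMIP*. Low counts weaken such correlations, so that the numbers of genes are not compared between these genes.

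Of 97 further genes of hyaluronan biology, arranged in 7 lists by role, 93 were found and 67 reached a mean of 1 CPM. Of the 67, 6 lay past 2-fold higher with TGF-β1 (8.96%) and 5 past 2-fold lower (7.46%), where the shares over all genes were 3.45% and 3.46%. The lists were chosen with results of these data known, so that nothing particular to them is read from these shares. Of all 12116 genes, 48.7% had a ratio above 0, beside which the counts of higher genes in each list stand.

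Precursor supply covers enzymes that make the 2 nucleotide sugars from which hyaluronan is built. Of its 13 measured genes 9 were higher and 4 lower after TGF-β1, with a median log2 ratio of 0.31. *GNPNAT1*, an acetyltransferase on the path to UDP-N-acetylglucosamine, was 78.5 CPM without and 160 CPM with TGF-β1, a log2 ratio of 1.02. *GFPT1*, an entry enzyme of the hexosamine pathway, gave 0.50, whereas the other such enzyme, *GFPT2*, named here after its value was seen, was the lowest of the list at -0.47. *NAGK*, which salvages N-acetylglucosamine, gave 0.31. The glycolytic *GPI* gave -0.28.

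The breakdown list had 5 measured genes, 3 higher and 2 lower, with a median log2 ratio of 0.16 and none past 2-fold. *HYAL1*, *HYAL3* and *HYALP1* were not found by symbol and were not analysed here. The lysosomal protease *CTSB* was 191 and 285 CPM, a log2 ratio of 0.58. The collagen-degrading *CTSK* gave -0.18.

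Among 12 measured binding proteins and receptors, 7 were higher and 5 lower, with a median of 0.24. *PTX3*, which encodes a pentraxin that helps to cross-link hyaluronan together with the product of *TNFAIP6*, was 5.77 CPM without and 0.469 CPM with TGF-β1, a log2 ratio of -3.62 (-3.93 to -3.33). *ITIH5*, which encodes a heavy chain of the inter-alpha-inhibitor family, was 2.55 and 0.851 CPM, a log2 ratio of -1.58. Both were lower while *TNFAIP6* itself was higher. *SUSD5* gave 0.70, *HABP4* 0.36 and *C1QBP* 0.12.

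The proteases that cleave versican went in both directions, with 3 of 5 higher, 2 lower and a median of 0.26, which was -0.60 over the 2 genes that reached a mean of 10 CPM. *ADAMTS1* was 54.1 CPM without and 18.4 CPM with TGF-β1, a log2 ratio of -1.56 (-1.61 to -1.504). *ADAMTS15* was lower too, at -1.49, from 2.00 to 0.710 CPM. *ADAMTS4* was higher, from 2.05 to 4.23 CPM, a log2 ratio of 1.04. *ADAMTS5* gave 0.36 and *ADAMTS9* 0.26. Thus the substrate *VCAN* was higher while *ADAMTS1* and *ADAMTS15* were lower and 3 other proteases were higher.

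The versican partners, which bind it or build its sugar chains, had 9 of 11 measured genes higher and 2 lower, and a median of 0.39. The counting interval lay above 0 for 8 of the 9. *FN1*, fibronectin, was 1934 CPM without and 6087 CPM with TGF-β1, a log2 ratio of 1.65. *TNC*, tenascin C, was 132 and 389 CPM, a log2 ratio of 1.56. The microfibril gene *FBN1* gave 0.42 and *FBLN2* 0.39, whereas *FBLN1* was lower at -0.54, with 513 CPM without and 353 CPM with TGF-β1.

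The *CD44* list covers proteins that link it to the cytoskeleton, cut it or bind it, and had a median of -0.01, with 5 of 11 higher and 6 lower, of which 4 had an interval below 0. Its extremes were *SPP1*, osteopontin, which was 2.91 and 11.6 CPM with a log2 ratio of 1.99, and the linker *ANK3*, at -1.20. *EZR*, ezrin, which ties *CD44* to actin, was 171 and 85.9 CPM, a log2 ratio of -0.99, just short of 2-fold. The related *MSN* gave 0.24 and *IQGAP1* -0.01. The list of regulators of the *HAS* genes had 3 of 10 higher, 2 of them with an interval above 0, and 7 lower, with a median of -0.09 and no gene past 2-fold. *STAT3* gave -0.50 and *YY1* -0.11, beside the 0.44 of *HAS2*.

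**Figure D5:**
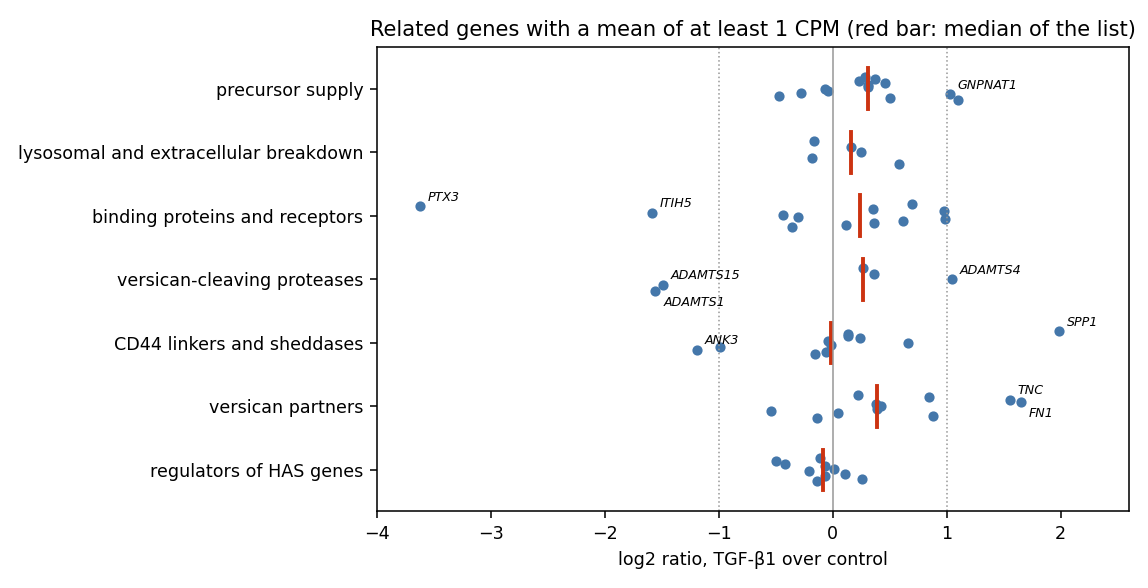
Log2 ratio of TGF-β1 over control for the 67 related genes that reached a mean of 1 CPM, by list, with the median of each list as a red bar and the genes past 2-fold (dotted lines) that the text describes named. The medians run from -0.09 for regulators of the *HAS* genes to 0.39 for versican partners, and *PTX3* lies lowest at -3.62.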

How the data were processed

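The deposited values were whole-number UMI counts per gene and cell barcode, without normalization, which the authors made with Cell Ranger against EquCab3.0. The submitters' processing notes name version 7.1.0 and the file header names 8.0.1. Gene names and barcodes were other deposited columns and were used as labels. The notes also name Seurat 5 and edgeR 4.2.2 for the study's own analysis, which was not rerun. Groups were taken from the treatment label.

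The study's limits on UMIs, genes and mitochondrial UMIs were applied to every barcode. The study removed doublets and called mares from the reads, and neither step was repeated, so doublets remain among the kept cells. Counts were summed per library with numpy 2.4.6 and pandas 2.3.3 (Python 3.11.15), intervals came from scipy 1.17.1 and figures from matplotlib 3.10.9. Log2 ratios carry no pseudocount and were not taken where a library had 0 UMIs. A floor of more than 3 UMIs in either library applied only to the alternative without a CPM minimum. Intervals are exact binomial (Clopper-Pearson), those of differences between shares are Newcombe's, and all are narrow for abundant genes because 210497250 and 219731144 UMIs were summed. Thinning drew UMIs without replacement. The calculation was tested on simulated data.

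The 9 genes, the related lists and the marker lists were chosen with earlier results of these data known. Named from the lists are genes past 2-fold whose mean reached 1 CPM and up to 3 further genes with the highest mean. Some genes that this rule names are not reported here. Alternatives were all barcodes, a minimum of 10000 UMIs, a limit of 6% mitochondrial UMIs, removal of cells above the 98th percentile of UMIs or of cycling cells, other scalings and CPM minimums, a 1.5-fold limit, thinning to 10000 UMIs, no thinning, another seed and detection at 2 UMIs. Tertiles of depth were added after seeing the data. Cells treated with MFGE8 were not analysed here.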

Additional observations from a re-analysis of the deposited data

How the results depend on the processing

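Of 56 ratios of the 7 genes under 8 alternatives, 52 moved by less than counting error, and the other 4 were all of *VCAN*, within 0.88 to 0.94. None of the 56 changed sign, and neither did any of 42 differences in share of cells. Of these 42, 10 moved beyond counting error. When at least 2 UMIs were asked for, the difference was 1.64 percentage points for *HAS2* in place of 7.56, and 8.29 for *VCAN* in place of 3.43. The number of genes past the limit was 3 at 1.5-fold, with *CEMIP* and *HAS1* lower and *VCAN* higher. At 2-fold it was 2 within the lowest and within the middle tertile of depth, a division added after seeing the data. The shares over all genes at these settings are not given, so that nothing is read from these counts. Of 164 co-detection differences 28 moved beyond counting error and 27 changed sign, none of them in the 5 pairs whose intervals lay apart. With another seed, *HAS1* with *CEMIP* in the control library went from -6.48 to 3.71 percentage points, and *CD44* with *TNFAIP6* in the TGF-β1 library from -4.14 to 9.94. The difference of *HAS2* and *CEMIP* was -4.09 percentage points in the control library when thinned to 10000 UMIs and 4.59 in the TGF-β1 library with another seed. Of 70 list medians 2 changed sign. Over genes that reached a mean of 10 CPM, the medians were 0.36 for binding proteins over 3 genes, -0.60 in place of 0.26 for versican-cleaving proteases over 2 genes and 0.42 for versican partners over 9 genes. Without a CPM minimum they were 0.12 for binding proteins, -0.042 for the *CD44* list and -0.13 for regulators of the *HAS* genes. Without cells above the 98th percentile of UMIs, the *CD44* list gave 0.0053 in place of -0.01 and versican partners 0.41. Versican partners gave 0.42 with the mean of per-cell CPM, and binding proteins 0.35 over 11 genes in place of 12 without cycling cells. Where the number of genes is the same, the cause was not tested. No paired analysis was possible because the cells were not assigned to mares here.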

Other observations

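The barcodes that did not pass the filters, 519 without and 611 with TGF-β1, also held the hyaluronan genes and are given as values only. In them *VCAN* was 1370 CPM without and 2871 CPM with TGF-β1, against 643 and 1188 CPM in the kept cells. *CEMIP* was 74.0 and 26.02 CPM, against 39.9 and 11.6 CPM. *CEMIP2* was 95.6 and 102 CPM, against 43.6 and 39.9 CPM, whereas *CD44* was 273 and 289 CPM, near its level of 294.6 and 296.7 CPM in the kept cells. *HAS2* was 25.6 and 24.4 CPM, against 17.5 and 23.8 CPM. These barcodes held a median of 3.23% and 10.2% mitochondrial UMIs, against 1.47% and 1.21% in the kept cells.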
